A study of Homo sapiens with 6 samples.

Results

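The G1/S transition and DNA replication genes are 59 genes that drive or restrain passage from G1 into S phase, or copy DNA. They were found by matching the NCBI gene IDs of the authors' deposited table to the listed symbols, and 58 of the 59 had a row, of 19589 features in all. CCND2 was not analysed here. All 58 passed the authors' filter on low values and had an adjusted p-value, and their mean normalized counts ran from 19.8 (E2F8) to 6498 (RRM1) in the authors' deposited table.

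RNA sequencing had compared libraries labelled HepG2, a human line derived from a liver tumour, transfected with a small interfering RNA that targets the long non-coding RNA HOTAIR (siHOTAIR), or with a control RNA without that target (siNC). Both groups were transfected, and the sources used here do not give the time from transfection to harvest. The labels give 3 libraries per group. The deposited means were built from 5 of them, 3 siHOTAIR and 2 siNC, so 1 labelled siNC library was not part of them, and the replicate numbers of the 5 are unknown. Here they are called siNC a and b and siHOTAIR a, b and c, and values are always given in that order. Reads recovered per library summed to between 5862757 and 7727272 over 19300 features. The labels do not say whether each library is its own culture, so the p-values cover the spread among these libraries only, and that spread may be technical. HOTAIR, the targeted RNA, had normalized counts of 202 and 150.1 in the siNC libraries and 62.4, 78.2 and 59.7 in the siHOTAIR libraries. The siHOTAIR values averaged 37.9% of the siNC mean and the groups did not overlap, with a log2 fold change of -1.37 (adjusted p = 5.60e-11, SE 0.197) in the authors' deposited table. When the recovered reads were tested with limma after leaving out siNC library a, the call for HOTAIR was lost (log2 fold change -1.17, adjusted p = 0.0749). Of 15 hepatocyte and HepG2 markers, 7 had a row, and 5 of these (APOA1, FGB, SERPINA1, TF and AHSG) had a mean under 1. HNF4A, a transcription factor of hepatocytes, had a mean of 5.06 in the authors' deposited table. The 5 markers under 1 encode plasma proteins that define the labelled line, and they were at or near 0.

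D-type cyclins with CDK4 or CDK6, and then cyclin E with CDK2, phosphorylate the retinoblastoma protein and release the E2F transcription factors, whose targets include most of the replication machinery. In G1 the origin recognition complex, CDC6 and CDT1 load the MCM helicase onto origins. In S phase the DBF4-CDC7 kinase and cyclin-dependent kinases recruit CDC45 and GINS to form the active helicase, and polymerases held by the PCNA clamp copy the strands. The genes of the replication machinery are highly expressed in proliferating cells, liver tumour lines among them.

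After siHOTAIR, 23 of the 58 genes rose and 9 fell at an adjusted p under 0.05 in the authors' deposited table, while 26 did not pass. The share called was 55.2% (39.7% rose, 15.5% fell), against 40.4% of all 14597 features tested (20% rose, 20.4% fell) and 47.0% of the features with a mean of 20 or more. The median log2 fold change was 0.14 over the 58 genes and 0.01 over all features tested, and 37 of the 58 values lay above 0. Most called changes were small: their median size was 0.49 on the log2 scale, against 0.54 over all called features. At a further requirement of at least 2-fold, 2 of the 58 members rose (CDKN1C and GINS2) and 0 fell. Among all 14597 features tested, 399 rose and 513 fell at that requirement. CDKN1C and GINS2 were also the 2 members in the authors' filtered list of 766 features. In these bulk libraries, fewer cells of a type and less RNA per cell cannot be told apart. The genes together took 0.912% and 0.915% of the recovered reads in the siNC libraries and 1.01%, 0.983% and 0.988% in the siHOTAIR libraries.

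**Figure D1:**
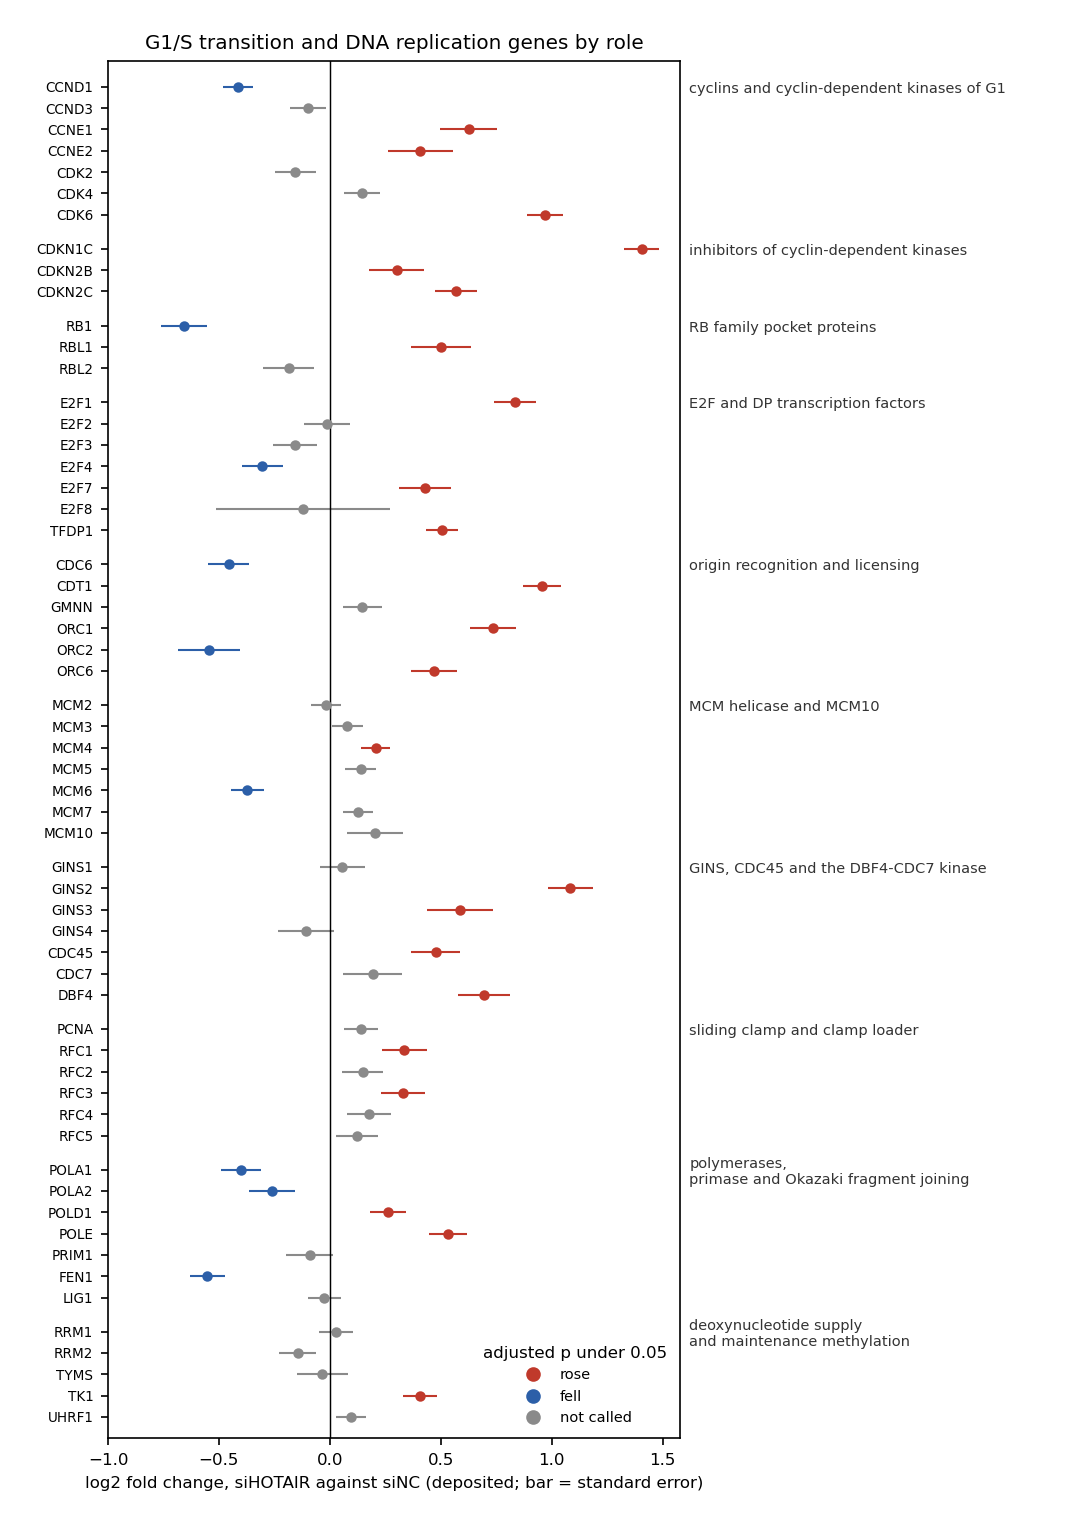
Log2 fold change of siHOTAIR against siNC for the 58 genes with a row in the authors' deposited table, grouped by role; points are the deposited values, bars 1 standard error, and colour the call at an adjusted p under 0.05. All 3 kinase inhibitors on the list lie right of 0, while each of the RB, E2F, licensing, MCM and polymerase groups holds members on both sides.

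The reads of every library could be recovered for all 58 genes, and on these every siHOTAIR library was above both siNC libraries for 34 genes (58.6%, against 30.9% of the 14436 features tested by the authors and recovered) and below both for 13 (22.4%, against 32.0%). The groups overlapped for 11 genes. All 32 called genes were without overlap, but they had been called for a difference between these same libraries. A further 15 genes without overlap did not pass the authors' threshold, and among the 14436 features 62.9% had groups without overlap. The limma test on log2 recovered normalized counts plus 1 called the same 32 genes with the same sign. Reads of the 58 genes were kept only where a refit gave the deposited fold change, so the match of signs was fixed in advance. Both tests rest on the same reads, so the match of calls is not independent support either. By limma 34.1% of 19300 features were called (16.8% higher, 17.3% lower), a set that also holds features without an adjusted p from the authors. Libraries of a group lay close together. The median log2 distance between highest and lowest library was 0.08 over the 2 siNC and 0.15 over the 3 siHOTAIR libraries. Such a distance tends to widen with the number of libraries, so the groups cannot be compared by it. The widest was 0.30 for RFC1 in siNC and 0.96 for E2F8 in siHOTAIR.

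**Figure D2:**
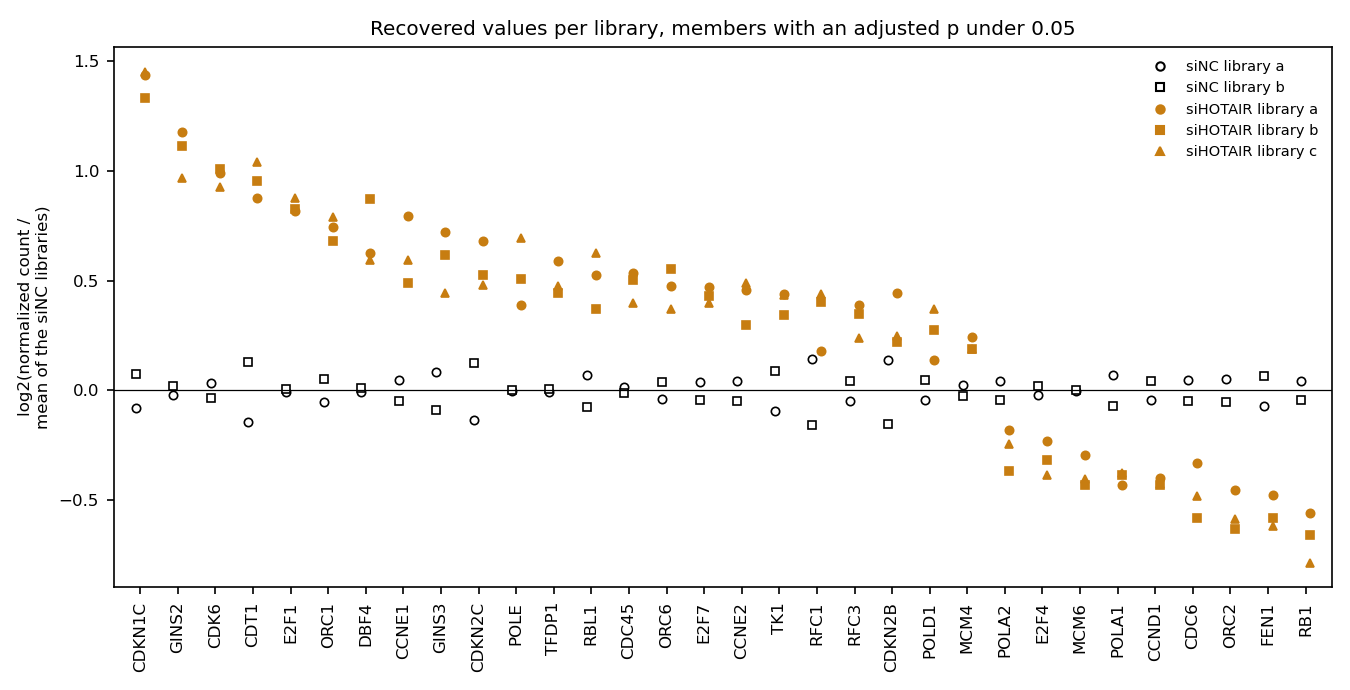
Recovered normalized count of each library, as log2 of its ratio to the mean of the 2 siNC libraries, for the 32 genes with an adjusted p under 0.05, ordered by the deposited log2 fold change; open symbols are siNC and filled symbols siHOTAIR. The filled symbols lie on 1 side of the open ones for every gene, and the gap between groups is narrowest for RFC1 (834 in siNC library a against 857 in siHOTAIR library a).

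Promoters of this group are known for E2F sites, so 3 E2F-type words (TTTCGCGC, TTTGGCGC and TTCCCGCC, both strands) were searched for in RefSeq promoters (GRCh38.p14) from 250 bases before to 50 after the start. The table held 50 of the 59 genes. At least 1 word was found in 24 of the 50 (48%), against 6.92% of 11190 promoters of features with an adjusted p and 4.30% of all 27305. The words were in 6 of 20 promoters of genes that rose (30%), in 4 of 8 of genes that fell (50%) and in 14 of 22 of genes not called (63.6%), and differences between these shares were not tested. The cell cycle homology words TTTGAA and TTCGAA were in 5 of the 50 (10%), against 11.2% of promoters of features with an adjusted p and 16.6% of all promoters. A match is a description and not a bound site. The windows printed here belong to the called genes with the largest change in either direction that had a match, 3 that rose (GINS2, CDT1 and E2F1) and 3 that fell (CDC6, POLA1 and MCM6), and capitals mark the word, on the gene's strand and 5′ to 3′. The same word, TTTGGCGC, stands in the window of E2F1, which rose, and in those of CDC6 and, as its reverse complement, POLA1, which fell. The window of MCM6, which also fell, holds TTTGGCGC too. There it overlaps the capitals, which mark the reverse complement of TTTCGCGC.
GINS2 (chr16:85688968-85688997, - strand): gctctcgccgtGGCGGGAAaacggcggccg
CDT1 (chr16:88803754-88803783, + strand): gcgggaaatttGGCGGGAAccgcgcccgcc
E2F1 (chr20:33686387-33686416, - strand): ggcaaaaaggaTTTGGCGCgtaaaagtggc
CDC6 (chr17:40287875-40287904, + strand): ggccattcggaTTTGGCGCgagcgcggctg
POLA1 (chrX:24693770-24693799, + strand): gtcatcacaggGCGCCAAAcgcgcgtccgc
MCM6 (chr2:135876511-135876540, - strand): ggtcaggtttgGCGCGAAAtctccagctcc
The word began 32 bases before the start of GINS2, 24 before that of CDT1 and 20 before that of E2F1. It began 137 bases before the start of POLA1, 86 before that of MCM6, whose promoter held 4 matches, and 7 bases after that of CDC6.

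Among the cyclins and kinases of G1, 3 of 7 genes rose, 1 fell and 3 were not called. CDK6, 1 of the 2 kinases driven by D-type cyclins, had normalized counts of 649.7 and 619.6 in the siNC libraries and 1262, 1279 and 1205 in the siHOTAIR libraries. The siHOTAIR mean was 1.97 times the siNC mean without overlap, and the log2 fold change was 0.97 (adjusted p = 1.79e-30, SE 0.0818) in the authors' deposited table. CDK4, the other such kinase, had a log2 fold change of 0.15 in the authors' deposited table (adjusted p = 0.145). CCND1, which encodes cyclin D1, went the other way with 2739 and 2904 in the siNC libraries and 2142, 2094 and 2103 in the siHOTAIR libraries. Every siHOTAIR library was below both siNC libraries, and the log2 fold change in the authors' deposited table was -0.41 (adjusted p = 5.73e-09, SE 0.0665). Both genes for cyclin E, the partner of CDK2 late in G1, rose. CCNE1 had 234 and 219.6 in the siNC libraries and 394, 319 and 342 in the siHOTAIR libraries. Its log2 fold change was 0.63 (adjusted p = 8.63e-06, SE 0.129) in the authors' deposited table, and siHOTAIR library a was the highest. CCNE2 had 159.9 and 150.1 in the siNC libraries and 213, 191 and 217 in the siHOTAIR libraries, with 0.41 in the authors' deposited table (adjusted p = 0.0176, SE 0.149). The cyclin E libraries were without overlap for both genes. CDK2 itself had a log2 fold change of -0.16 (adjusted p = 0.172) and CCND3, for cyclin D3, of -0.10 (adjusted p = 0.361) in the authors' deposited table.

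All 3 inhibitors of cyclin-dependent kinases on the list rose, but inhibitor genes outside the list did not. CDKN1B, CDKN2A and CDKN2D were not called, and CDKN1A, given further on, fell. The log2 fold changes of the uncalled genes were 0.07, 0.08 and 0.28 (adjusted p = 0.538, 0.405 and 0.290) in the authors' deposited table. CDKN1C, which encodes p57, an inhibitor of the cyclin E and cyclin A kinases, changed more than any other of the 58 genes. Its normalized counts were 779.5 and 868 in the siNC libraries and 2230.0, 2076 and 2256 in the siHOTAIR libraries, a mean 2.66 times that of siNC. The log2 fold change was 1.41 in the authors' deposited table (adjusted p = 1.82e-69, SE 0.0782), and the lowest siHOTAIR library stood far above the highest siNC library. CDKN2C and CDKN2B encode p18 and p15, inhibitors of CDK4 and CDK6. CDKN2C had 735 and 878 in the siNC libraries and 1294, 1163 and 1125 in the siHOTAIR libraries, with a log2 fold change of 0.57 (adjusted p = 1.26e-08, SE 0.0931) in the authors' deposited table. CDKN2B had 342 and 280.1 in the siNC libraries and 424, 363 and 369.5 in the siHOTAIR libraries, with 0.30 in the authors' deposited table (adjusted p = 0.0366, SE 0.122). The siNC libraries of CDKN2B lay far apart, and its log2 fold change in the limma test was 0.17 without siNC library b and 0.46 without siNC library a.

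The 3 pocket proteins, which bind E2F factors and hold their targets in check, did not move together. RB1, the retinoblastoma gene, had 611 and 577 in the siNC libraries and 404, 376 and 345 in the siHOTAIR libraries. It had the lowest log2 fold change of the 58 genes in the authors' deposited table, -0.66 (adjusted p = 3.85e-09, SE 0.104), and all siHOTAIR libraries were lower. RBL1, which encodes p107, rose, with 204 and 185 in the siNC libraries and 279.8, 252 and 301 in the siHOTAIR libraries and a log2 fold change of 0.50 (adjusted p = 0.00102, SE 0.136) in the authors' deposited table. RBL2, which encodes p130, had -0.19 (adjusted p = 0.196) in the authors' deposited table, and every siHOTAIR library was below both siNC libraries.

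Of the 7 E2F and DP genes, 3 rose and 1 fell. E2F1, an activator of S-phase genes, had 414 and 418 in the siNC libraries and 733, 739 and 765 in the siHOTAIR libraries. The libraries of each group were almost level, and the log2 fold change was 0.84 (adjusted p = 2.32e-17, SE 0.0941) in the authors' deposited table. TFDP1 encodes the DP1 subunit with which E2F factors bind DNA, and it rose with 1527 and 1544 in the siNC libraries and 2312, 2090.0 and 2138 in the siHOTAIR libraries (log2 fold change 0.51, adjusted p = 4.41e-11, SE 0.0721 in the authors' deposited table). E2F7, an atypical repressor, had 268 and 253 in the siNC libraries and 361, 351 and 344 in the siHOTAIR libraries, with 0.43 in the authors' deposited table (adjusted p = 0.00122, SE 0.118). All siHOTAIR libraries were higher for both genes. E2F4, a repressor in resting cells with RBL1 and RBL2, fell, with 695 and 714 in the siNC libraries and 600.3, 565 and 539.6 in the siHOTAIR libraries and -0.30 in the authors' deposited table (adjusted p = 0.00372, SE 0.0925). The other activators, E2F2 and E2F3, had log2 fold changes of -0.01 (adjusted p = 0.941) and -0.16 (adjusted p = 0.207) in the authors' deposited table. E2F8, the other atypical repressor, was the least abundant member, and its siHOTAIR libraries, at 13.9, 27.8 and 15.8, lay on both sides of the siNC libraries at 22.6 and 19.1.

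The genes that mark and license origins were split, with 3 of 6 rising and 2 falling. CDT1, which loads the MCM helicase, had 1453 and 1759 in the siNC libraries and 2951, 3114 and 3300.0 in the siHOTAIR libraries. Every siHOTAIR library was well above both siNC libraries, with a log2 fold change of 0.96 (adjusted p = 1.16e-27, SE 0.0847) in the authors' deposited table. GMNN encodes geminin, the inhibitor of CDT1, and had 0.15 (adjusted p = 0.182) in the authors' deposited table. CDC6, the other loading factor, fell, with 1000.0 and 938 in the siNC libraries and 771, 648 and 694 in the siHOTAIR libraries and a log2 fold change of -0.46 (adjusted p = 4.97e-06, SE 0.0918) in the authors' deposited table. The subunits of the origin recognition complex also parted. ORC1 had 326 and 349.6 in the siNC libraries and 566, 541 and 584 in the siHOTAIR libraries, with 0.74 in the authors' deposited table (adjusted p = 2.56e-11, SE 0.104). ORC6 had 368 and 388 in the siNC libraries and 525, 555 and 489 in the siHOTAIR libraries, with 0.47 in the authors' deposited table (adjusted p = 4.84e-05, SE 0.105). Both were higher in every siHOTAIR library. ORC2 had 263 and 244 in the siNC libraries and 185, 164 and 169 in the siHOTAIR libraries, all lower after siHOTAIR, with -0.55 in the authors' deposited table (adjusted p = 4.51e-04, SE 0.140).

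The MCM2 to MCM7 subunits of the replicative helicase, with MCM10, which helps to activate it, stayed within a narrow range of log2 fold change, from -0.37 to 0.21 in the authors' deposited table. MCM4 rose, with 3156 and 3044 in the siNC libraries and 3667, 3533 and 3534 in the siHOTAIR libraries (0.21, adjusted p = 0.00601, SE 0.0657 in the authors' deposited table). MCM6 fell, with 1608 and 1617 in the siNC libraries and 1317, 1196 and 1218 in the siHOTAIR libraries (-0.37, adjusted p = 4.12e-06, SE 0.0741 in the authors' deposited table). The groups did not overlap for either gene. MCM5, MCM7 and MCM10 were higher in every siHOTAIR library without passing the threshold, with 0.14, 0.13 and 0.20 in the authors' deposited table (adjusted p = 0.0951, 0.127 and 0.192). MCM2 and MCM3 had overlapping groups, with -0.02 and 0.08 in the authors' deposited table (adjusted p = 0.876 and 0.392).

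Of the 7 genes for GINS, CDC45 and the DBF4-CDC7 kinase, 4 rose and 0 fell. GINS2, 1 of the 4 GINS subunits, had 354 and 364 in the siNC libraries and 812, 778 and 702 in the siHOTAIR libraries, a mean 2.13 times that of siNC. The log2 fold change was 1.08 (adjusted p = 6.57e-25, SE 0.101) in the authors' deposited table, and no siHOTAIR library came near the siNC libraries. GINS3 had 159 and 141 in the siNC libraries and 248, 230.2 and 204 in the siHOTAIR libraries, with 0.59 in the authors' deposited table (adjusted p = 4.29e-04, SE 0.150). The other subunits of the same complex, GINS1 and GINS4, had 0.06 and -0.11 in the authors' deposited table (adjusted p = 0.715 and 0.542). CDC45, the third part of the active helicase, had 316 and 310.4 in the siNC libraries and 455, 444 and 413 in the siHOTAIR libraries, with 0.48 in the authors' deposited table (adjusted p = 8.36e-05, SE 0.110). DBF4, the activating subunit of the kinase that fires origins, had 296 and 300.3 in the siNC libraries and 460.0, 546 and 451 in the siHOTAIR libraries. It rose in every siHOTAIR library, most in library b, with 0.70 in the authors' deposited table (adjusted p = 2.35e-08, SE 0.116). CDC7, the catalytic subunit, had 0.19 (adjusted p = 0.249) in the authors' deposited table.

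Of the 6 genes for the clamp and its loader, 2 rose and 4 were not called, with log2 fold changes from 0.12 to 0.34 in the authors' deposited table. RFC1, the large subunit of the loader, had 834 and 677 in the siNC libraries and 857, 998 and 1023 in the siHOTAIR libraries. Its siNC libraries lay far apart and siHOTAIR library a was only just above the higher of them, with 0.34 in the authors' deposited table (adjusted p = 0.00382, SE 0.102) and 0.20 in the limma test without siNC library b. RFC3 had 439.5 and 468 in the siNC libraries and 595, 578 and 536 in the siHOTAIR libraries, with 0.33 in the authors' deposited table (adjusted p = 0.00352, SE 0.0998). PCNA, the clamp, had 1566 and 1814 in the siNC libraries and 1876, 1892 and 1818 in the siHOTAIR libraries, all higher after siHOTAIR but by less than the test could separate from the spread (0.14, adjusted p = 0.130, SE 0.0765 in the authors' deposited table). The loader subunits RFC2, RFC4 and RFC5 had 0.15, 0.18 and 0.12 in the authors' deposited table (adjusted p = 0.199, 0.148 and 0.323).

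Polymerase genes changed in opposite directions. POLE, the catalytic subunit of the leading-strand polymerase, rose, with 1535 and 1541 in the siNC libraries and 2013, 2187 and 2486 in the siHOTAIR libraries and a log2 fold change of 0.53 (adjusted p = 4.68e-09, SE 0.0848) in the authors' deposited table. POLD1, the catalytic subunit of the lagging-strand polymerase, had 1153 and 1228 in the siNC libraries and 1312, 1438 and 1539 in the siHOTAIR libraries, with 0.26 in the authors' deposited table (adjusted p = 0.00511, SE 0.0823). Both genes were higher in every siHOTAIR library, highest in library c. POLA1, the catalytic subunit of the polymerase that extends primers, fell, with 877 and 794 in the siNC libraries and 619, 639 and 643 in the siHOTAIR libraries (-0.40, adjusted p = 4.35e-05, SE 0.0890 in the authors' deposited table). Its partner POLA2 had 541 and 509 in the siNC libraries and 464, 407 and 443 in the siHOTAIR libraries, with -0.26 in the authors' deposited table (adjusted p = 0.0309, SE 0.103). FEN1, the nuclease that trims Okazaki fragments, had 1582 and 1743 in the siNC libraries and 1194, 1110.0 and 1085 in the siHOTAIR libraries, with -0.55 in the authors' deposited table (adjusted p = 2.77e-11, SE 0.0781). These 3 genes were lower in every siHOTAIR library. The primase subunit PRIM1 and the ligase LIG1, which seals the fragments, had -0.09 and -0.03 in the authors' deposited table (adjusted p = 0.542 and 0.827).

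In the group of deoxynucleotide supply and maintenance methylation, TK1, the thymidine kinase of the salvage route, was the single gene called of 5. It had 1312 and 1490.0 in the siNC libraries and 1901, 1776 and 1895 in the siHOTAIR libraries, all higher after siHOTAIR, with 0.41 in the authors' deposited table (adjusted p = 9.32e-07, SE 0.0767) and 0.21 after the GC correction described further on. RRM1 and RRM2, the subunits of ribonucleotide reductase, had 0.03 and -0.15 in the authors' deposited table (adjusted p = 0.809 and 0.162). TYMS, thymidylate synthase, had -0.03 (adjusted p = 0.853) in the authors' deposited table, and siHOTAIR library c, at 455 normalized counts, lay below the other 4 libraries, which ran from 562 to 609. UHRF1, which guides maintenance methylation to new DNA, had 0.10 (adjusted p = 0.267) in the authors' deposited table.

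Pairs of genes within 1 library do not depend on how libraries were scaled, and 3 pairs of opposed or partner genes are given here, chosen after their values were seen. There were 0.678 and 0.724 reads of E2F1 per read of RB1 in the siNC libraries and 1.82, 1.97 and 2.22 in the siHOTAIR libraries. CDT1 gave 1.99 and 2.31 reads per read of GMNN in siNC and 3.47, 3.64 and 4.30 after siHOTAIR. ORC1 gave 1.24 and 1.43 reads per read of ORC2 in siNC and 3.06, 3.30 and 3.45 after siHOTAIR. The groups did not overlap for any of the 3 pairs. For E2F1 with RB1 and for ORC1 with ORC2 this was fixed by the choice of genes, which had changed in opposite directions without overlap.

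Fewer calls were made with fewer libraries. Refitted with limma without each library in turn, the 23 and 9 calls fell to 7 and 3 without siNC library a, 8 and 2 without siNC library b, 12 and 8 without siHOTAIR library a, 14 and 4 without siHOTAIR library b, and 14 and 6 without siHOTAIR library c. The share of all 19300 features called fell as well, from 34.1% to between 10.4% and 19.2%. No called gene changed sign in any of the 5 fits, which was fixed in advance because no called gene had overlapping groups. The 8 genes called in all 5 were CCND1, CDK6, CDKN1C, CDT1, E2F1, E2F7, GINS2 and ORC1, and the 6 called in none were CDKN2B, CDKN2C, MCM4, POLA2, POLD1 and RFC1.

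The genes were moderately to highly abundant among the 14597 features tested, apart from E2F8. Larger changes in both directions were found among other features, with log2 fold changes from -2.88 to 3.14 in the authors' deposited table against -0.66 to 1.41 among the 58.

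**Figure D3:**
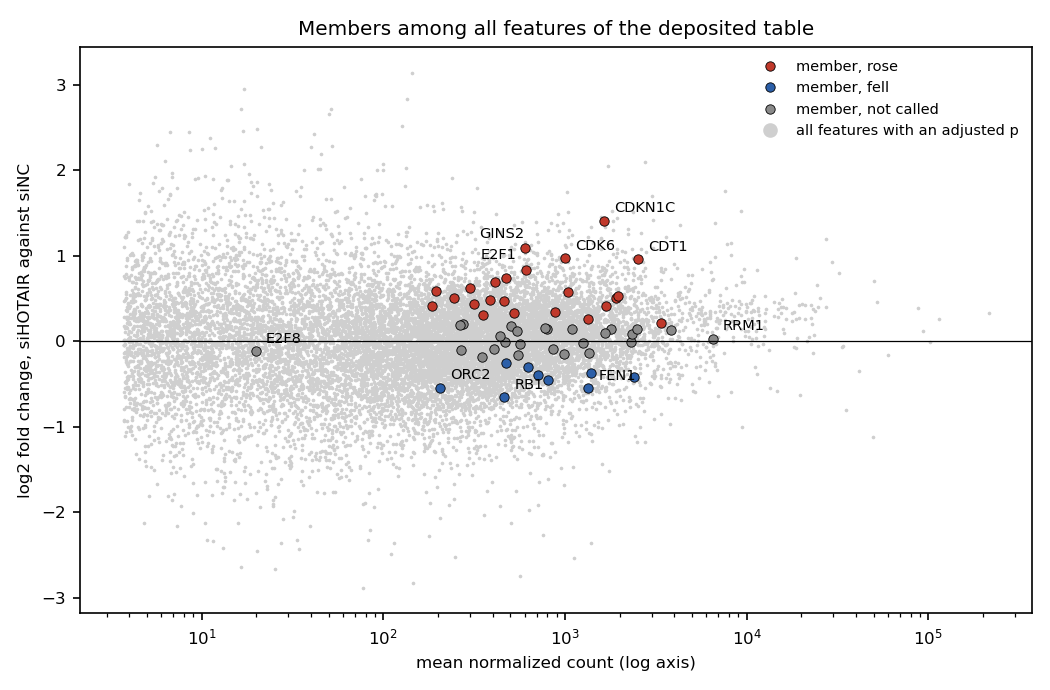
Log2 fold change against mean normalized count (log axis) for the 14597 features with an adjusted p in the authors' deposited table (grey) and the 58 genes (coloured by call). E2F8 stands alone at a mean of 19.8, the next lowest mean is 186 (CCNE2), and CDKN1C is the highest of them.

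Other genes of the same pathways were counted from lists that do not overlap the 58. Of 23 other G1/S regulators, 4 rose and 3 fell in the authors' deposited table, a share called of 30.4% beside 40.4% of all features and 47.0% of those with a mean of 20 or more. MYBL2, a transcription factor of the E2F pathway, had the largest rise, with 1.25 (adjusted p = 3.59e-59, SE 0.0752) in the authors' deposited table. CDKN1A, which encodes p21, a relative of the p57 gene CDKN1C, fell, with 2291 and 2528 in the siNC libraries and 1273, 1255 and 1268 in the siHOTAIR libraries. Its log2 fold change was -0.92 (adjusted p = 1.36e-35, SE 0.0720) in the authors' deposited table, the opposite direction to the 3 inhibitors on the list. CKS1B, a subunit of kinase complexes, had 0.26 (adjusted p = 0.00752) and CUL4A, part of the ligase that degrades CDT1, had 0.21 (adjusted p = 0.0122) in the authors' deposited table. Of 39 other replication factors, 14 rose and 3 fell (43.6% called). CHTF18, of an alternative clamp loader, had 1.12 (adjusted p = 2.27e-36) and RECQL4, a helicase of origin firing, had 1.07 (adjusted p = 4.24e-35) in the authors' deposited table. CHAF1B, of the histone chaperone that follows the fork, had 0.88 (adjusted p = 1.01e-12), while ORC3, another origin recognition subunit, fell with -0.89 (adjusted p = 1.71e-10) in the authors' deposited table. The 30 G2 and mitosis genes on a further list held 8 that rose and 1 that fell (30% called). FOXM1, a transcription factor of G2 genes, had 1.07 (adjusted p = 7.13e-54), CCNF, for cyclin F, 0.90 (adjusted p = 3.29e-21), and ANLN, for anillin, -0.84 (adjusted p = 8.86e-22) in the authors' deposited table. BIRC5, for survivin, had 0.56 (adjusted p = 5.36e-09) in the authors' deposited table. The medians of the 3 lists were 0.07, 0.02 and 0.11 on the log2 scale.

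GC content moved with the fold change across the table. Among 14085 features with a transcript GC value, the median log2 fold change was -0.09 in the tenth with the lowest GC (up to 38.7%) and 0.25 in the tenth with the highest (from 62.2%). The Spearman rho was 0.22 over features, which share libraries and base composition, and 0.10 over the 58 genes. Median GC was 48.5% in genes that rose, 45.5% in genes that fell and 46.9% in those not called. CDT1, at 64.9% GC, had a log2 fold change of 0.71 after the trend was subtracted, E2F1, at 62.5%, had 0.65, and CDKN1C, at 63.8%, had 1.19. GINS2, at 49.1%, and CDK6, at 39.5%, had 1.13 and 1.08. With the trend subtracted, 26 genes rose and 9 fell. Over the features, 2727 rose and 2786 fell, against 2925 and 2975 of the 14597 tested before the correction. A GC value was at hand for 14085 features, so these counts need not cover the same features. POLD1 lost its call, with a log2 fold change of 0.02 (adjusted p = 0.90), and GMNN, MCM10, PCNA and RFC4 passed. TK1, at 62.8% GC, kept its call at a lower log2 fold change, 0.21 (adjusted p = 0.0165). The part of GC content in the changes was not tested further.

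**Figure D4:**
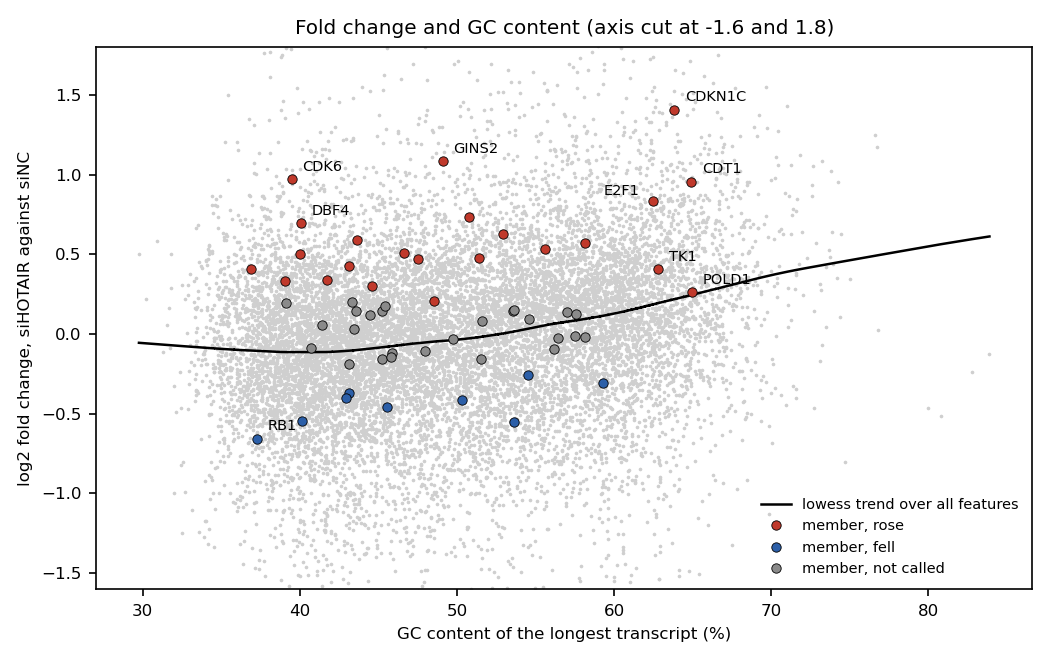
Log2 fold change in the authors' deposited table against GC content of the longest transcript (%), for all features (grey), the 58 genes (coloured by call) and a lowess trend over all features (line); the vertical axis is cut. POLD1 sits on the trend, while CDK6, GINS2 and CDKN1C lie far above it and RB1 below it.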

How the data were processed

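Total RNA was freed of ribosomal RNA and sequenced, and the titles gave each library's group. The submitters' processing notes name HTSeq 0.6.1, DESeq and DESeq2 among the authors' tools and hg19 as the build. The sources used here do not give the aligner, the annotation or the strand setting, so reads of a gene and an antisense partner may not be separated. The authors' deposited mean signal is, per the file headers, the average of the libraries' counts after each was divided by its size factor. The log2 fold changes, which are shrunken toward 0, their standard errors and the score (fold change over standard error) are the authors', as deposited. The p-values and Benjamini-Hochberg adjusted p-values are the authors' DESeq2 values, as deposited, and a gene was called at an adjusted p under 0.05.

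The files hold 0 columns of single libraries. Each deposited mean is a sum of whole reads times 5 steps, 1 per library, and the group of a step was read from the sign of the deposited fold change of features with a single read, never from a gene's level. Whole-number solutions of each mean were kept when a refit gave the deposited fold change within 5e-07 on the log2 scale. This was met for all 58 genes. Reads were recovered for 98.9% of the features with an adjusted p and for 19300 features in all, of which 2819 (42 with an adjusted p) rest on the mean alone. Features with a mean above 7000 (147) were not tried, and those recovered hold 70.2% of the summed means. The recovered values were tested with limma 3.58.1 (R 4.3.3) with a mean trend on log2 normalized counts plus a pseudocount of 1, and both procedures were tested on simulated data.

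The 59 genes, the other gene lists and the role groups were chosen with earlier results of these data known. Values are given for every called member, and outside the list for HOTAIR and up to 4 called genes of smallest p per other list. Those of the uncalled inhibitor genes CDKN1B, CDKN2A and CDKN2D were added. The value of 1 marker gene is not reported here. GC content is that of the longest GENCODE 29 transcript, and its trend was a lowess with a span of 0.3. Promoters are RefSeq's (GRCh38.p14), which is not the authors' build. Alternatives were other thresholds, filters, pseudocounts and scalings, limma-voom and leaving out each library.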

Additional observations from a re-analysis of the deposited data

How the results depend on the processing

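The counts of 23 genes that rose and 9 that fell stayed within 1.5 times under every alternative run except the fold requirement and the loss of a library. With at least 2-fold required, 2 rose and 0 fell among the genes, and 399 rose and 513 fell among all features, where 2925 and 2975 had passed without it. Leaving out each library in turn gave 7 to 14 genes that rose and 2 to 8 that fell in limma, with fewer libraries in each fit; where 1 siNC library remained, it was assumed to vary like the siHOTAIR libraries. The log2 fold change of HOTAIR ran from -1.59 to -1.17 in these fits, and its call was lost without siNC library a (-1.17, adjusted p = 0.0749). Thresholds of 0.01 and 0.1 gave 21 and 24 that rose and 8 and 9 that fell. Among all features they gave 2238 and 3360 that rose and 2273 and 3389 that fell. Scaling by the total of recovered reads, chosen after seeing the data, ended the call of MCM4 (log2 fold change 0.17, adjusted p = 0.107), and the GC correction, also chosen then, that of POLD1. The median of the genes stayed between 0.14 and 0.15. No called gene changed direction. For the fits that left out a library this was fixed in advance, because no called gene had overlapping groups. PRIM1 and TYMS, which were not called, went from -0.09 to 0.02 and from -0.03 to 0.0048 with the GC correction. No paired analysis was possible because the recovered libraries carry no replicate numbers. Precision is limited by 2 siNC libraries, and counting error is largest for E2F8, with a mean of 19.8.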
